A study of Mus musculus with 12 samples.

Results

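Liver identity rests on a small group of transcription factors, and 9 of their genes are described here: Hnf4a, Cebpa, Foxa2, Onecut1, Nr1i2, Nr1i3, Nr1h3, Rxra and Nr5a2. They were taken by symbol from a table of read counts for 25611 genes in whole mouse liver, where each symbol matched 1 gene, and all 9 passed the low-count filter that left 13190 genes for testing. The mice were male C57BL/6J animals of 8 to 10 weeks in 3 groups of 4. Sham mice were operated on without injury to the gut, CLP mice had sepsis from cecal ligation and puncture, and CLP+DCA mice had the same surgery and then dichloroacetate (DCA), a pan-PDK inhibitor, at 25 mg/kg. Every animal was given saline fluids under the skin. Livers of all groups were taken 30 hr post-surgery, which for CLP+DCA was 6 hr after the injection made at 24 hr. The injection that sham and CLP mice received, if any, is not given in the sources used here. The question of the design is which changes sepsis brings to the liver and which of these differ when PDK is inhibited.

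As background, HNF4A, C/EBPα, FOXA2 and HNF6 (the product of Onecut1) bind each other's genes and those of plasma proteins and metabolic enzymes, and together keep hepatocytes differentiated. The other 5 genes encode nuclear receptors, transcription factors that most often respond to small lipophilic molecules: PXR (Nr1i2) and CAR (Nr1i3) sense drugs and bile acids and induce detoxification enzymes, LXRα (Nr1h3) senses oxysterols, and LRH-1 (Nr5a2) drives bile acid synthesis. RXRα (Rxra) is the shared partner with which PXR, CAR and LXRα bind DNA. HNF4A is a nuclear receptor too, so that 6 of the 9 belong to that family. In inflammation, several of these receptors are known to lose activity in the liver.

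Where these genes start bears on what a count per gene can tell. Promoters of all 9 genes were found in RefSeq (build GRCm38.p6, the assembly also called mm10), 15 in number, each from 250 bases before to 50 bases after a start site. The promoter of Cebpa, the first of 3 of Foxa2 (at the gene start in the table) and both of Hnf4a are shown, because Cebpa and Foxa2 gave the smallest p values of the comparisons below and because Hnf4a has a pair of promoters 40298 bases apart whose transcripts are counted as 1 gene. The downstream Hnf4a promoter is known as the one used in adult liver. Distant promoters were not particular to Hnf4a: the second promoters of Rxra and Nr5a2, not shown, lie 32091 and 6818 bases from the gene start. Capitals mark matches, on either strand, to 1 of 6 short motifs, and the sequences run 5′ to 3′ on the strand of the gene.
Cebpa, chr7:35119043-35119342, plus strand: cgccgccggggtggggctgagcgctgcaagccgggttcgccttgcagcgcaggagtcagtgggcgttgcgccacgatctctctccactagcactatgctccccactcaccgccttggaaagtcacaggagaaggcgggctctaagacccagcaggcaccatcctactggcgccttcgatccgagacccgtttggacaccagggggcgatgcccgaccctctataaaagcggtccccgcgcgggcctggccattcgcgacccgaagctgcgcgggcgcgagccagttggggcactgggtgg
Foxa2 first, chr2:148046920-148047219, minus strand: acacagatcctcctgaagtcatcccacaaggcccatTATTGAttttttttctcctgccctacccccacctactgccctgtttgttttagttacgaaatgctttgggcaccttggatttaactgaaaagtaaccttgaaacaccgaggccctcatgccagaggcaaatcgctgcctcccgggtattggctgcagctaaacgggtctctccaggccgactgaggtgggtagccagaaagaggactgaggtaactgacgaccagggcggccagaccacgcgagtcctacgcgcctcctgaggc
Hnf4a upstream, chr2:163506607-163506906, plus strand: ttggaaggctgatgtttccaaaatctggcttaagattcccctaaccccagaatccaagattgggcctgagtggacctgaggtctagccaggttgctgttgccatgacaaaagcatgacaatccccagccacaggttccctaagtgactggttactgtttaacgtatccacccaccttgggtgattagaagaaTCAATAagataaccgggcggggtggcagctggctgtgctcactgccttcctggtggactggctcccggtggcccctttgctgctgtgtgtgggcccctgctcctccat
Hnf4a downstream, chr2:163546905-163547204, plus strand: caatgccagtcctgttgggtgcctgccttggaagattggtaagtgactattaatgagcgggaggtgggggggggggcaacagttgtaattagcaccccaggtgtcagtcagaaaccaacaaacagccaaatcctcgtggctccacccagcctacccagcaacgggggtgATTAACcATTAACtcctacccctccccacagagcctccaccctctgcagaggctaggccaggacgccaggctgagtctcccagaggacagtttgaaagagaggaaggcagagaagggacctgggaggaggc

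The motifs searched were AGGTCA (nuclear receptor half-site), TGTTTAC (forkhead), TTGCNNAA (C/EBP), GTTAAT (HNF1 half-site), TCAATA (HNF6) and CAAAGTC (HNF4), and no marked matches overlap in the promoters shown. The upstream Hnf4a promoter held 1 HNF6 match at position -58, counted from the start site, and the downstream promoter 2 HNF1 half-sites at -81 and -74. The first Foxa2 promoter held 1 HNF6 match at position -214, the second no match, and the third, which is not shown, 1 HNF1 half-site and 1 HNF6 match. The Cebpa promoter held none of these letters. Of all 32851 promoters in that table, 7.28% held the HNF6 motif, 7.10% the HNF1 half-site, 16.3% the nuclear receptor half-site, 10.8% the C/EBP motif, 4.44% the HNF4 motif and 3.65% the forkhead motif. Such a match is a description of the letters and no evidence of binding.

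Each mouse had from 24436513 to 44266819 reads on genes. CLP+DCA replicate 3 stood apart from the other mice of its group: genes of the acute phase took 36.0% of its reads against 17.4 to 21.2% in the other CLP+DCA mice, 22.5 to 37.3% in CLP and 13.4 to 15.6% in sham. Hpd, a hepatocyte enzyme of tyrosine breakdown, was at 62.5 CPM in that mouse and between 1350 and 1501 CPM in the others of its group. Results that rest on this mouse are therefore also given without it. Expression is in CPM, read counts scaled to a common library size after TMM normalization. The test was edgeR's quasi-likelihood test on all 12 mice, and unless another tool is named, p values are from that test, adjusted over all 13190 genes at an FDR of 0.05. The 9 genes and the gene lists were chosen with results of these data known.

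Summed markers of hepatocytes, neutrophils and cholangiocytes did not overlap between sham and CLP, while those of the other cell types did. The CLP+DCA mice overlapped CLP for every type, and sham for every type except hepatocytes. The summed level of the 9 hepatocyte markers found, of 10 listed, was 67120 to 91200 CPM in sham, 39060 to 53860 CPM in CLP and 35230 to 63230 CPM in CLP+DCA, and of the 9, 6 had a log2 fold change below 0 in CLP versus sham and 1, Alb, fell past the FDR. Alb made up most of that sum, with means of 46670 CPM in sham and 21570 CPM in CLP, where Apob had 6262 and 7497 CPM, Ahsg 8114 and 8639 CPM and Apoh 1918 and 1933 CPM, so that the sum mainly followed Alb. The 10 neutrophil markers summed to 6.24 to 8.97 CPM in sham, 31.8 to 46.0 CPM in CLP and 6.29 to 61.3 CPM in CLP+DCA. CLP+DCA replicate 3 was the highest. Camp, a neutrophil granule gene that did not pass the filter, had no read in any sham mouse and 15 reads over the CLP mice. Of the 9 neutrophil markers tested, 8 were above 0 on the log2 scale in CLP versus sham and 1 rose past the FDR. Ly6g, the 1 below 0, was at -0.78 (unadjusted p = 0.0305, adjusted p = 0.136), with means of 0.82 CPM in sham and 0.46 CPM in CLP. The reads of neutrophil markers were a small part of every library. The 10 Kupffer cell and macrophage markers ranged from 207.4 to 345.9 CPM in sham, 323.4 to 413.6 CPM in CLP and 268.1 to 519.9 CPM in CLP+DCA, and among them Marco had means of 9.91 in sham and 58.6 CPM in CLP and Clec4f 59.4 and 49.1 CPM. The 8 cholangiocyte markers ranged from 51.0 to 64.1, 77.9 to 115.1 and 53.5 to 234.0 CPM, the 6 endothelial markers from 92.2 to 119.1, 109.2 to 136.3 and 88.9 to 132.1 CPM, and the 6 stellate cell markers from 68.7 to 108.0, 106.6 to 412.8 and 87.6 to 246.4 CPM in sham, CLP and CLP+DCA. Above 0 in CLP versus sham were 9 of 10 Kupffer cell, 6 of 7 cholangiocyte, 4 of 6 endothelial and 6 of 6 stellate cell markers tested, and none of these passed the FDR with edgeR. DESeq2 on the 8 mice compared called 6 hepatocyte markers lower. It called 8 neutrophil, 1 Kupffer cell, 4 cholangiocyte, 2 endothelial and 4 stellate cell markers higher. Of the 14683 genes it tested, it called 1684 lower and 1744 higher. In whole liver, fewer cells of a type and less RNA per cell cannot be told apart, and the part of these shifts in the values below was not tested.

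Taken per length, the 9 genes spanned a wide range of levels in sham. On the scale of CPM per kilobase of GENCODE exons, sham means were 163.6 ± 8.95 for Hnf4a, 162.3 ± 4.42 for Cebpa and 107.2 ± 5.66 for Rxra (SD, n = 4 each). The middle of the order was held by Nr1h3 at 53.4 ± 4.13, Nr1i3 at 38.4 ± 12.7 and Nr1i2 at 26.6 ± 3.71. Foxa2 at 10.6 ± 1.84, Nr5a2 at 9.76 ± 0.692 and Onecut1 at 2.19 ± 2.17 were the least expressed. Neighbors in this order whose sham mice overlapped were Hnf4a and Cebpa, Nr1i3 and Nr1i2, and Foxa2 and Nr5a2, while each other neighboring pair was separated in all 4 sham mice. The order by mean was the same in CLP, and in CLP+DCA it differed only in Nr1i2 being above Nr1i3 (24.8 ± 11.3). The exons are those of the basic GENCODE set, which need not be the annotation used for counting.

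**Figure D1:**
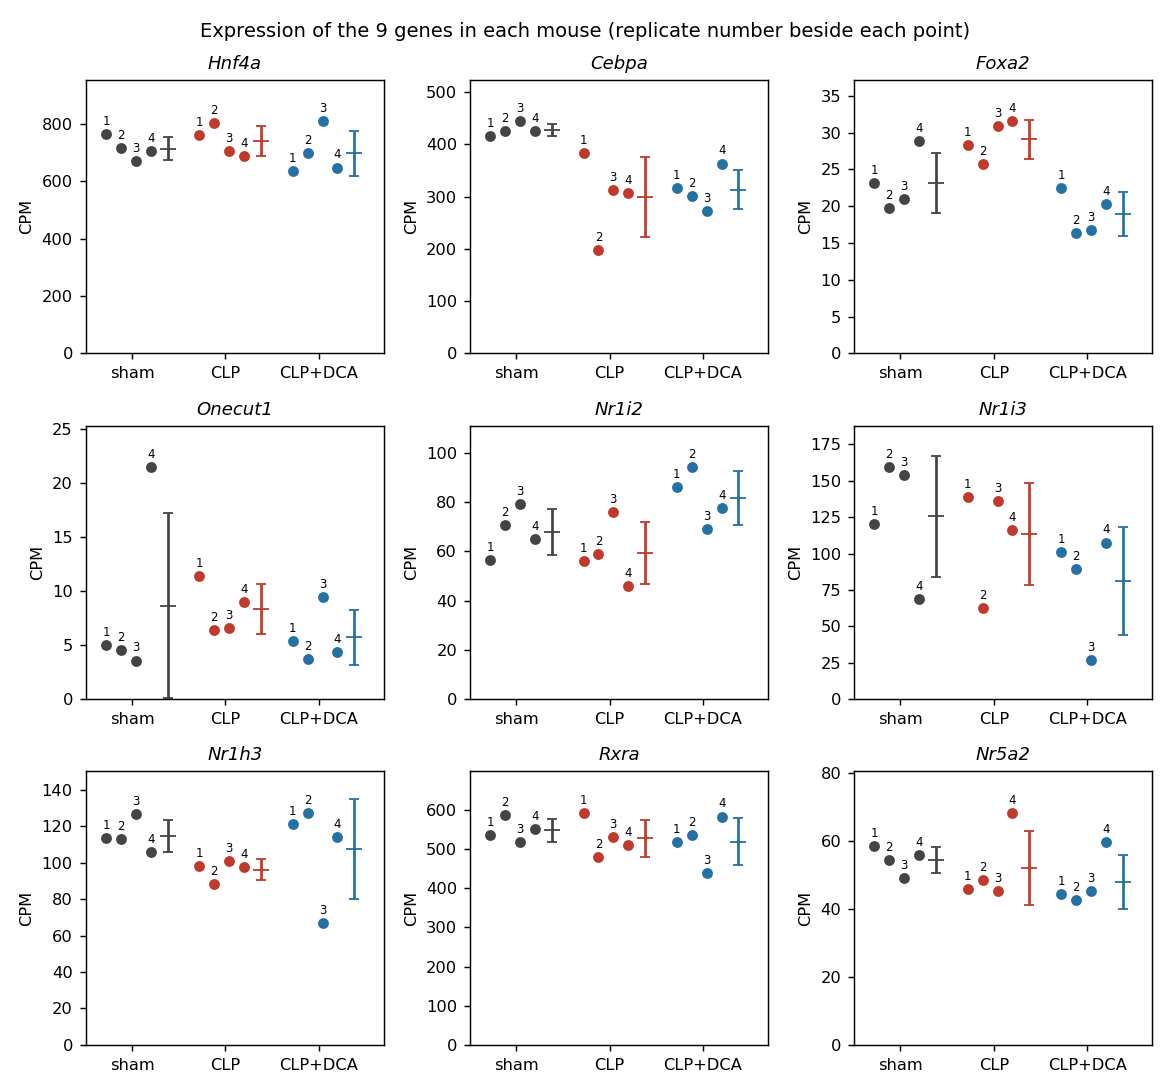
CPM (y axis, starting at 0) of each of the 9 genes in every mouse of the 3 groups (x axis); points are mice with their replicate number, and the bar beside them is the mean ± SD (n = 4). The CLP and CLP+DCA points of Cebpa lie below all 4 sham points, and those of Hnf4a and Rxra overlap between all groups.

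In CLP versus sham, none of the 9 genes passed the FDR, while 2.78% of all genes tested did (edgeR's quasi-likelihood test). Unadjusted p was under 0.05 for 2 of the 9, Cebpa (lower) and Foxa2 (higher), beside 28.6% of all genes (13.1% lower and 15.5% higher). DESeq2 on the 8 mice compared called 2 of the 9, Cebpa and Nr1h3, both lower in CLP, beside 23.3% of the genes it tested. For these 2 genes, Cebpa and Nr1h3, every CLP mouse was below every sham mouse, as for 14.2% of all genes. Differences of this kind were thus frequent among all genes. Their log2 fold changes ran from -0.51 to 0.33 with a median of -0.07, where the median of all genes was 0.02.

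Cebpa (NCBI Gene 12606, chromosome 7 from 35119293 to 35121931, plus strand) is an intronless gene and encodes C/EBPα, which drives genes of gluconeogenesis, glycogen and urea synthesis. Sham mice had 415.9, 426.4, 444.0 and 425.1 CPM, CLP mice 382.8, 197.4, 312.7 and 307.4 CPM, and CLP+DCA mice 317.0, 301.4, 272.5 and 363.5 CPM (replicates 1 to 4). Every CLP and every CLP+DCA mouse was below every sham mouse, with CLP replicate 2 the lowest of all. The sham mice were close together, with a coefficient of variation of 2.74%, against 25.5% in CLP and 12.1% in CLP+DCA. The log2 fold change was -0.51 in CLP versus sham (SE 0.175, 95% interval -0.89 to -0.13, adjusted p = 0.0938) and -0.45 in CLP+DCA versus sham (SE 0.175, interval -0.83 to -0.07, adjusted p = 0.323), neither past the FDR. CLP+DCA and CLP differed by 0.06 (interval -0.32 to 0.44, adjusted p = 0.923). These comparisons share groups, and their values are given side by side only.

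The Cebpa difference was called lower in both septic groups by DESeq2 on the 8 mice compared (adjusted p = 0.0257 in CLP and 0.0150 in CLP+DCA versus sham). Leaving CLP+DCA replicate 3 out of the edgeR fit also put CLP versus sham past the FDR, at the same log2 fold change of -0.51 (adjusted p = 0.0441), while CLP+DCA versus sham was then -0.39 (adjusted p = 0.540). edgeR on only the 8 mice compared called Cebpa in neither contrast (adjusted p = 0.0740 and 0.355). Without CLP replicate 2, the lowest mouse, the CLP change was -0.36. With library size alone in place of TMM, all genes shifted by a median of -0.15 in this comparison, and Cebpa was at -0.67 (adjusted p = 0.0791).

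Foxa2 (NCBI Gene 15376, chromosome 2 from 148042877 to 148046969, minus strand), a forkhead factor that opens chromatin at liver genes and acts on fasting metabolism, had the smallest p of the 9 between CLP+DCA and CLP without passing the FDR. Sham mice had 23.1, 19.7, 21.0 and 28.8 CPM, CLP mice 28.4, 25.7, 30.9 and 31.5 CPM, and CLP+DCA mice 22.4, 16.3, 16.7 and 20.3 CPM. All CLP mice were above all CLP+DCA mice, and the sham mice lay between and overlapped both groups. In CLP+DCA versus CLP the log2 fold change was -0.62 (SE 0.139, interval -0.92 to -0.32, unadjusted p = 0.000824, adjusted p = 0.178), rank 61 by p of 13190 genes. The changes from sham were 0.33 in CLP (interval 0.03 to 0.63, adjusted p = 0.144) and -0.29 in CLP+DCA (interval -0.59 to 0.01, adjusted p = 0.400). DESeq2 on the CLP and CLP+DCA mice called Foxa2 (adjusted p = 0.0164), and so did edgeR without CLP+DCA replicate 3 (log2 fold change -0.57, adjusted p = 0.0474), but edgeR on the same 8 mice did not (-0.62, adjusted p = 0.434). Foxa2 rested on 485 to 1277 reads per mouse.

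Hnf4a (NCBI Gene 15378, chromosome 2 from 163506857 to 163572907, plus strand), the factor that controls apolipoprotein, coagulation and bile acid genes in hepatocytes, was at 765.0, 714.8, 670.8 and 703.9 CPM in sham, 762.3, 803.4, 705.6 and 687.1 CPM in CLP and 634.6, 699.1, 808.3 and 647.8 CPM in CLP+DCA. The groups overlapped throughout. Its log2 fold changes were 0.05 in CLP versus sham (interval -0.20 to 0.30, adjusted p = 0.783), -0.03 in CLP+DCA versus sham (interval -0.29 to 0.22) and -0.08 in CLP+DCA versus CLP (interval -0.34 to 0.17). These intervals were the narrowest of the 9 genes in each comparison. With library size alone, the first was -0.12 and the last 0.02, so that the sign of these small values depended on scaling. The antisense gene Hnf4aos overlaps Hnf4a on the other strand, with 29 to 279 reads per mouse against 15302 to 33081 on Hnf4a.

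Rxra (NCBI Gene 20181, chromosome 2 from 27677201 to 27763319, plus strand) encodes the partner receptor RXRα and had 536.4, 585.2, 516.5 and 551.9 CPM in sham, 591.4, 479.1, 529.4 and 510.9 CPM in CLP and 518.5, 535.0, 438.0 and 582.6 CPM in CLP+DCA. The groups overlapped, and CLP+DCA replicate 3 was the lowest of all mice. The log2 fold change was -0.05 in CLP versus sham (interval -0.31 to 0.21, adjusted p = 0.782), -0.08 in CLP+DCA versus sham (interval -0.34 to 0.18) and -0.03 in CLP+DCA versus CLP (interval -0.28 to 0.23). With library size alone the last was 0.09.

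Nr1i2 (NCBI Gene 18171, chromosome 16 from 38248349 to 38294824, minus strand), which encodes PXR, had 56.6, 70.7, 79.2 and 65.1 CPM in sham, 56.2, 58.9, 76.1 and 46.0 CPM in CLP and 86.2, 94.2, 69.1 and 77.5 CPM in CLP+DCA. The 2 highest values were both in CLP+DCA mice, and the lowest was in a CLP mouse, but CLP replicate 3 overlapped the CLP+DCA group. The log2 fold change was 0.46 in CLP+DCA versus CLP (SE 0.158, interval 0.12 to 0.81, unadjusted p = 0.0130, adjusted p = 0.398). From sham it was -0.20 in CLP (interval -0.54 to 0.15, adjusted p = 0.411) and 0.27 in CLP+DCA (interval -0.08 to 0.61, adjusted p = 0.471). Without CLP+DCA replicate 3 the CLP+DCA versus CLP value was 0.54 (adjusted p = 0.0656).

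Nr1i3 (NCBI Gene 12355, chromosome 1 from 171213970 to 171218845, plus strand), which encodes CAR, varied more between mice of a group than between groups. It had 120.6, 159.3, 153.7 and 68.6 CPM in sham, 138.6, 62.9, 136.4 and 116.4 CPM in CLP and 100.9, 89.3, 27.1 and 107.6 CPM in CLP+DCA. A single mouse was low in each group, sham replicate 4, CLP replicate 2 and CLP+DCA replicate 3. The log2 fold changes were -0.14 in CLP versus sham (interval -1.03 to 0.74, adjusted p = 0.831), -0.63 in CLP+DCA versus sham (interval -1.52 to 0.26, adjusted p = 0.510) and -0.48 in CLP+DCA versus CLP (interval -1.38 to 0.41, adjusted p = 0.718). Without CLP+DCA replicate 3 the latter values were -0.34 and -0.20. Such intervals leave room for a change to either side, so that no difference was detectable with this spread.

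Nr1i3 and the gene Tomm40l, on opposite strands, share 1043 bases in the coordinates of the table. Tomm40l, which encodes a protein of the outer mitochondrial membrane, was low in the same mice: 124.0, 208.6, 189.6 and 70.1 CPM in sham, 109.4, 60.2, 130.4 and 97.8 CPM in CLP and 106.0, 120.8, 34.4 and 127.8 CPM in CLP+DCA. The library kit does not mark strand, so reads of the shared bases cannot be assigned by strand, and their part in the counts of Nr1i3 was not tested.

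Nr1h3 (NCBI Gene 22259, chromosome 2 from 91184061 to 91195116, minus strand), which encodes LXRα, a receptor of hepatocytes and also of macrophages, had 113.4, 113.2, 126.9 and 105.6 CPM in sham, 97.9, 88.1, 101.0 and 97.7 CPM in CLP and 121.4, 127.2, 67.1 and 114.1 CPM in CLP+DCA. Every CLP mouse was below every sham mouse, and 3 of the 4 CLP+DCA mice were above every CLP mouse, with replicate 3 below all of them. The log2 fold change in CLP versus sham was -0.25 (SE 0.168, interval -0.62 to 0.11, adjusted p = 0.317). It was called by DESeq2 on the 8 mice compared (-0.26, adjusted p = 0.0236) and by edgeR without CLP+DCA replicate 3 (-0.25, SE 0.0841, adjusted p = 0.0469). CLP+DCA differed from sham by -0.10 and from CLP by 0.16 (adjusted p = 0.805 and 0.779), and by 0.07 and 0.33 without that mouse (adjusted p = 0.864 and 0.0566). With edgeR on only the 8 mice of CLP and sham, neither Nr1h3 (adjusted p = 0.0714) nor Cebpa (adjusted p = 0.0740) passed.

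Nr5a2 (NCBI Gene 26424, chromosome 1 from 136843584 to 136960448, minus strand), which encodes LRH-1, had 58.4, 54.4, 49.2 and 55.7 CPM in sham, 45.8, 48.4, 45.3 and 68.1 CPM in CLP and 44.2, 42.6, 45.1 and 59.7 CPM in CLP+DCA. In both septic groups 3 mice were below every sham mouse, and replicate 4 was above every sham mouse. The log2 fold changes of -0.07 in CLP versus sham (interval -0.39 to 0.25, adjusted p = 0.774), -0.18 in CLP+DCA versus sham (interval -0.50 to 0.14) and -0.11 in CLP+DCA versus CLP (interval -0.44 to 0.21) were within the spread.

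Onecut1 (NCBI Gene 15379, chromosome 9 from 74861921 to 74889647, plus strand), whose product HNF6 acts in bile duct and hepatocyte development and on bile acid and glucose genes, was the least expressed of the 9. Its coefficient of variation was 99.1%, 28.2% and 45.3% in the sham, CLP and CLP+DCA mice. Sham mice had 5.02, 4.53, 3.58 and 21.5 CPM, CLP mice 11.4, 6.37, 6.63 and 8.98 CPM, and CLP+DCA mice 5.36, 3.70, 9.45 and 4.33 CPM. Every CLP mouse was above 3 of the sham mice, and sham replicate 4 was above all other mice. The log2 fold change in CLP versus sham was -0.05 (SE 0.532, interval -1.22 to 1.11, adjusted p = 0.953), and without sham replicate 4 it was 0.93 (SE 0.327, unadjusted p = 0.0163, adjusted p = 0.146). Between CLP+DCA and sham the values were -0.60 with and 0.39 without that mouse, and CLP+DCA versus CLP gave -0.55 (adjusted p = 0.760). The direction from sham therefore rested on 1 mouse.

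**Figure D2:**
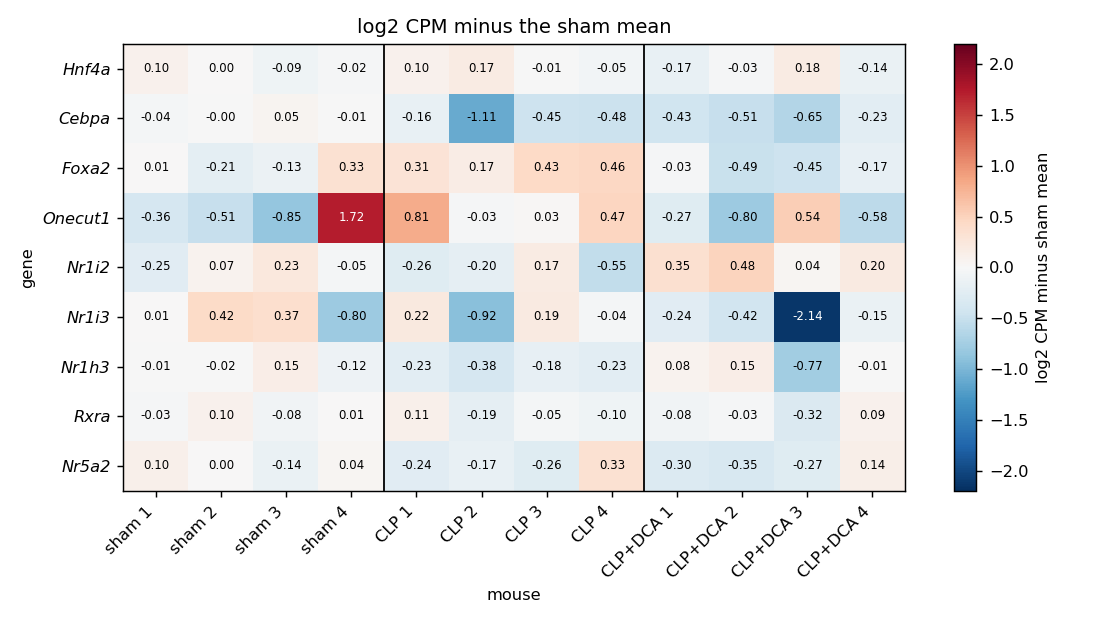
log2 CPM minus the sham mean (color and printed values) of the 9 genes (rows) in each mouse (columns, groups parted by lines). The lowest value is Nr1i3 in CLP+DCA replicate 3 (-2.14) and the highest Onecut1 in sham replicate 4 (1.72), while Hnf4a and Rxra stay near 0.

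In CLP+DCA versus sham, none of the 9 genes passed the FDR, where 0.0379% of all genes did, and 1 of the 9 (Cebpa, lower) had an unadjusted p under 0.05, beside 4.85% of all genes lower and 8.14% higher. DESeq2 on these 8 mice called 1 of the 9, Cebpa, beside 1.20% of its genes, and gave no adjusted p for Onecut1. Cebpa was also the 1 gene in which every CLP+DCA mouse was below every sham mouse, beside 4.97% of all genes. Between CLP+DCA and CLP, again none of the 9 passed, beside 0.00758% of all genes by edgeR. Unadjusted p was under 0.05 for 1 gene lower (Foxa2) and 1 higher (Nr1i2), beside 4.94% and 5.06% of all genes. DESeq2 called Foxa2, 1 of the 9, beside 0.604% of its genes, and Foxa2 was the 1 gene in which all CLP+DCA mice were below all CLP mice, beside 2.05% of all genes. Seen mouse by mouse, 6 of the 9 genes were below every sham mouse in CLP+DCA replicate 3, 5 in CLP replicate 2, and 2 to 4 in the other septic mice. In each septic mouse, 1 or 2 of the 9 were above every sham mouse. The share of all genes outside the sham range in each mouse was not computed, so that these counts are description only.

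**Figure D3:**
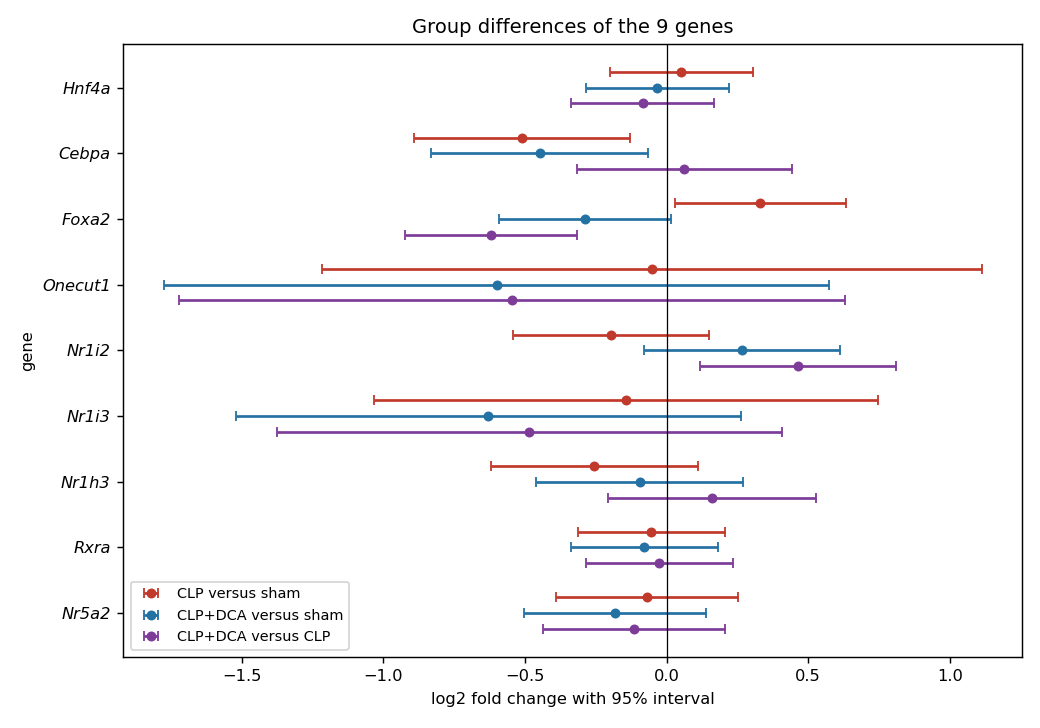
log2 fold changes (x axis) of the 9 genes (y axis) with 95% intervals from edgeR's quasi-likelihood fit, in color by comparison. Intervals that leave out 0 are those of Cebpa in both comparisons with sham, of Foxa2 when CLP is set against either other group, and of Nr1i2 between CLP+DCA and CLP, none of which passed the FDR.

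The gene whose pattern over the 12 mice was most like Cebpa, by the root mean square difference in log2 CPM from the sham mean, was Nfib, a transcription factor of the NFI family, at 0.136, followed by Depdc7 (0.139) and C77080, Kank2 and Grtp1 (0.145 each), where the median of all genes was 0.552. Nfib had log2 fold changes of -0.57 in CLP versus sham and -0.42 in CLP+DCA versus sham.

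Among the nuclear receptor family as a whole, 39 of 49 genes passed the filter and none passed the FDR in any comparison. In CLP versus sham, 27 of the 39 were below 0 on the log2 scale, 10 with an unadjusted p under 0.05 (13.1% of all genes were lower at that level), and none was higher at that level. DESeq2 called 11 of the family lower, as it did 1684 of the 14683 genes it tested. Without CLP+DCA replicate 3, edgeR called 8 of the 39 lower, beside 1530 of all genes lower. On the 8 mice compared, edgeR called 6 lower, beside 1176 of all genes lower. The median of the 39 was -0.20. None of those 10 was among the 6 receptors described here, whose values ran from -0.25 to 0.05. The smallest p values belonged to Nr1d2, a repressor of the circadian clock, at -0.73 (adjusted p = 0.0527), and Pparg, a regulator of lipid storage, at -0.76 (adjusted p = 0.0685). DESeq2 called both (adjusted p = 0.000681 and 0.0176). Of 18 coregulators of these receptors none passed, and Ppargc1b, a coactivator of oxidative metabolism, had the smallest p (-0.91, adjusted p = 0.0691). DESeq2 called it lower (adjusted p = 2.73e-05), the 1 call it made among the 18.

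**Figure D4:**
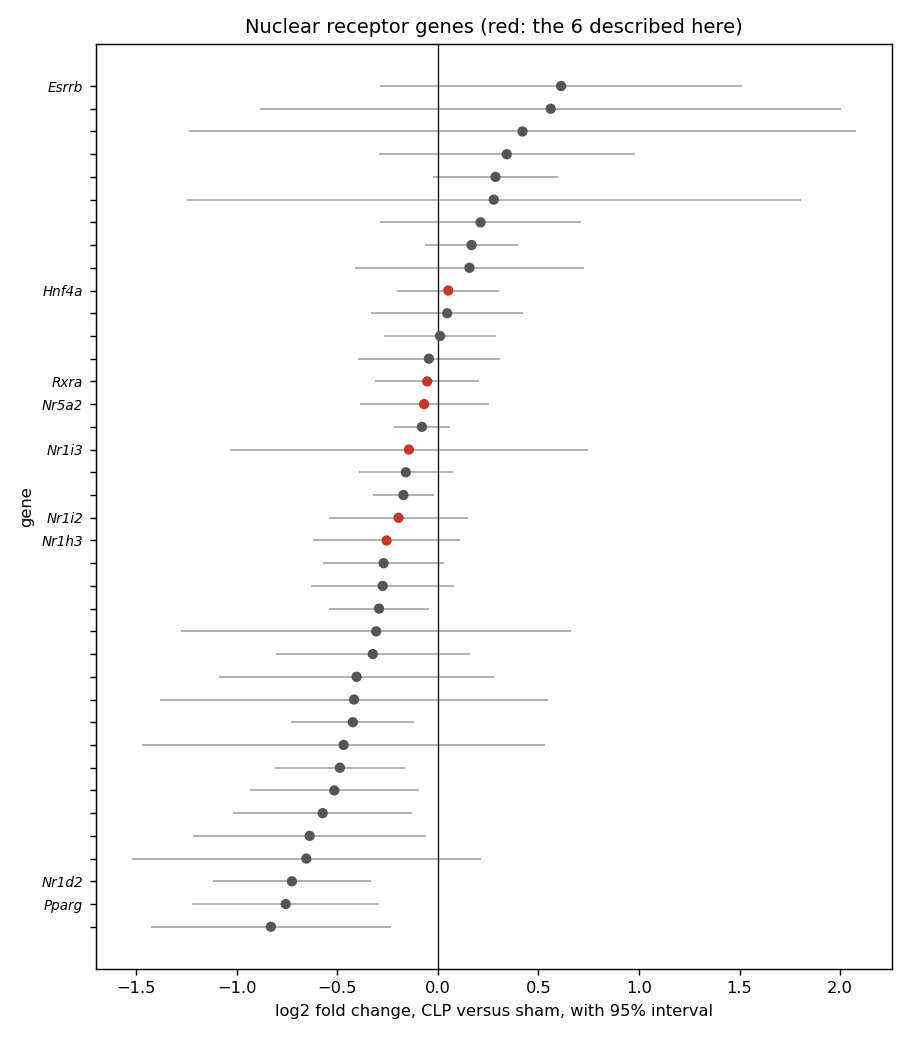
log2 fold change in CLP versus sham (x axis) with 95% interval of nuclear receptor genes that passed the filter (y axis, in order of the change), with the 6 described here in red and the receptors named in the text labelled. The 6 lie between -0.25 and 0.05, with other receptors on both sides, up to 0.61 (Esrrb).

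Of 26 other transcription factors of the liver, 2 rose and 1 fell past the FDR in CLP versus sham, beside 1.64% of all genes higher and 1.14% lower. Cebpd, a C/EBP factor induced by cytokines, averaged 4.70 ± 1.81 CPM in the sham and 21.3 ± 9.28 CPM in the CLP mice (SD, n = 4) and rose with a log2 fold change of 2.17 (adjusted p = 0.0283). Gata6, a zinc finger factor, rose too, at 0.76 (adjusted p = 0.0495), and Srebf1, which drives lipid synthesis, fell to a log2 fold change of -1.94 (adjusted p = 0.0475). Their values in CLP+DCA versus sham were 1.77, 0.65 and -0.82, none past the FDR. None of the 26 passed when any 1 sham mouse, CLP replicate 2 or CLP replicate 4 was left out. DESeq2 called 2 of them higher and 8 lower, beside 1744 higher and 1684 lower of the 14683 genes it tested. Without CLP+DCA replicate 3, edgeR also called 2 higher and 8 lower, beside 1627 genes higher and 1530 lower.

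Genes known as targets of the factors were measured in the same mice, from lists written from general knowledge with results of these data in view. For PXR, 12 of 13 targets tested had a log2 fold change below 0 in CLP versus sham, with a median of -0.85 against -0.20 for Nr1i2 itself, and 2 passed the FDR. Ces2a, a carboxylesterase, averaged 362.3 ± 70.0 CPM in the sham and 112.6 ± 33.8 CPM in the CLP mice (SD, n = 4) and fell, with a log2 fold change of -1.69 (SE 0.214, adjusted p = 0.00845). Ugt1a1, which conjugates bilirubin and is a target of both PXR and CAR, was at -1.72 (adjusted p = 0.0495), although genes of its locus share exons so that its counts are uncertain. For CAR, 11 of 12 targets tested were below 0, with a median of -2.02 against -0.14 for Nr1i3, and 1, Ugt1a1, passed the FDR. Cyp2c55, a member of a family of similar cytochrome P450 genes, was at -3.11 (adjusted p = 0.0662), with means of 3.31 CPM in sham and 0.34 CPM in CLP. Of the same family, Cyp2c29, Cyp2c37, Cyp2c50 and Cyp2c54 were at -2.82, -2.54, -2.33 and -2.32, so that the median leaned on similar genes. The other CAR targets tested ran from -2.46 (Cyp2b10, mean 0.44 CPM in CLP) to 0.66 (Gadd45b). The lists of PXR and CAR share Ugt1a1, Por and Alas1. These counts stand beside 6346 of 13190 genes that were below 0. For these and the lists below, 1.14% of all genes fell and 1.64% rose past the FDR.

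For LXR, 9 of 14 targets were below 0 (median -0.30, Nr1h3 at -0.25), and 3 fell and 1 rose past the FDR. Scd1, which desaturates fatty acids, was at -2.68 (adjusted p = 0.0275), Abcg8, a sterol exporter, at -0.65 (adjusted p = 0.0294) and Srebf1 at -1.94, while Mylip, which marks the LDL receptor for breakdown, rose by 0.99 (adjusted p = 0.0403). For LRH-1, 8 of 9 were below 0 (median -0.82, Nr5a2 at -0.07) and none passed, although the median was -0.51 without CLP replicate 2 and -0.52 without CLP replicate 4. The smallest p values were those of Gls2, a glutaminase, at -1.13 (adjusted p = 0.0765), and of Cyp7a1, the rate-limiting enzyme of bile acid synthesis, at -3.24 (SE 1.44, adjusted p = 0.165). The difference between a receptor's own value and the median of its targets was not tested.

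For HNF4A, 14 of 17 targets were below 0 (median -0.38, Hnf4a at 0.05), and 2 fell past the FDR: Apoc3, an apolipoprotein of triglyceride-rich particles, at -0.81 (adjusted p = 0.0366) and Pklr, liver pyruvate kinase, at -0.67 (adjusted p = 0.0479). The HNF4A median was -0.19 without CLP replicate 2, with 12 of 17 below 0, and -0.57 without CLP replicate 1 or 3. For C/EBPα, 10 of 11 were below 0 (median -0.49, Cebpa at -0.51), and 2 fell past the FDR: G6pc, which releases free glucose, from 136.0 to 50.7 CPM (-1.42, adjusted p = 0.0404), and Alb, serum albumin, at -1.11 (adjusted p = 0.0463). Ass1, counted among those 10 at -1.18 (SE 0.671), had means of only 0.69 CPM in sham and 0.28 CPM in CLP. For FOXA2, 6 of 9 were below 0 (median -0.17, or -0.10 without CLP replicate 2, Foxa2 at 0.33) and none passed, with Ttr, which carries thyroid hormone, at -0.60 (adjusted p = 0.0815) and Foxa1, a sister factor, at -0.28 (adjusted p = 0.150). For HNF6, 5 of 8 were below 0 (median -0.17, Onecut1 at -0.05), with G6pc the 1 that passed and Foxa2 next by p.

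The target calls in CLP versus sham depended on single mice and on the tool. No target of HNF4A, C/EBPα, HNF6 or LXR passed when any 1 sham mouse or CLP replicate 1, 2 or 4 was left out, and no CAR target when any of these or CLP+DCA replicate 1 or 2 was. Leaving out CLP+DCA replicate 1 also ended the HNF4A calls, and leaving out it or CLP+DCA replicate 2 the C/EBPα and HNF6 calls. At least 1 PXR target passed in every such fit. With a replicate block, 1 PXR and 2 LXR targets passed and none of the other lists. Without CLP+DCA replicate 3, edgeR called 7 PXR, 4 CAR, 6 LXR, 6 HNF4A, 5 C/EBPα, 2 FOXA2, 1 HNF6 and 1 LRH-1 targets lower. That fit called 2 LXR and 1 C/EBPα target higher, beside 1530 genes lower and 1627 higher. edgeR on the 8 mice compared called 5 PXR, 3 CAR, 4 LXR, 5 HNF4A and 3 C/EBPα targets lower. FOXA2, HNF6 and LRH-1 each had 1 lower there, and CAR and LXR each 1 higher, beside 1176 genes lower and 1211 higher. DESeq2 called 8 PXR, 6 CAR, 6 LXR, 6 HNF4A, 5 C/EBPα, 2 FOXA2, 1 HNF6 and 1 LRH-1 targets lower. It called 1 CAR, 2 LXR, 1 HNF4A and 1 C/EBPα target higher. Of the 14683 genes it tested, DESeq2 called 1684 lower and 1744 higher.

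**Figure D5:**
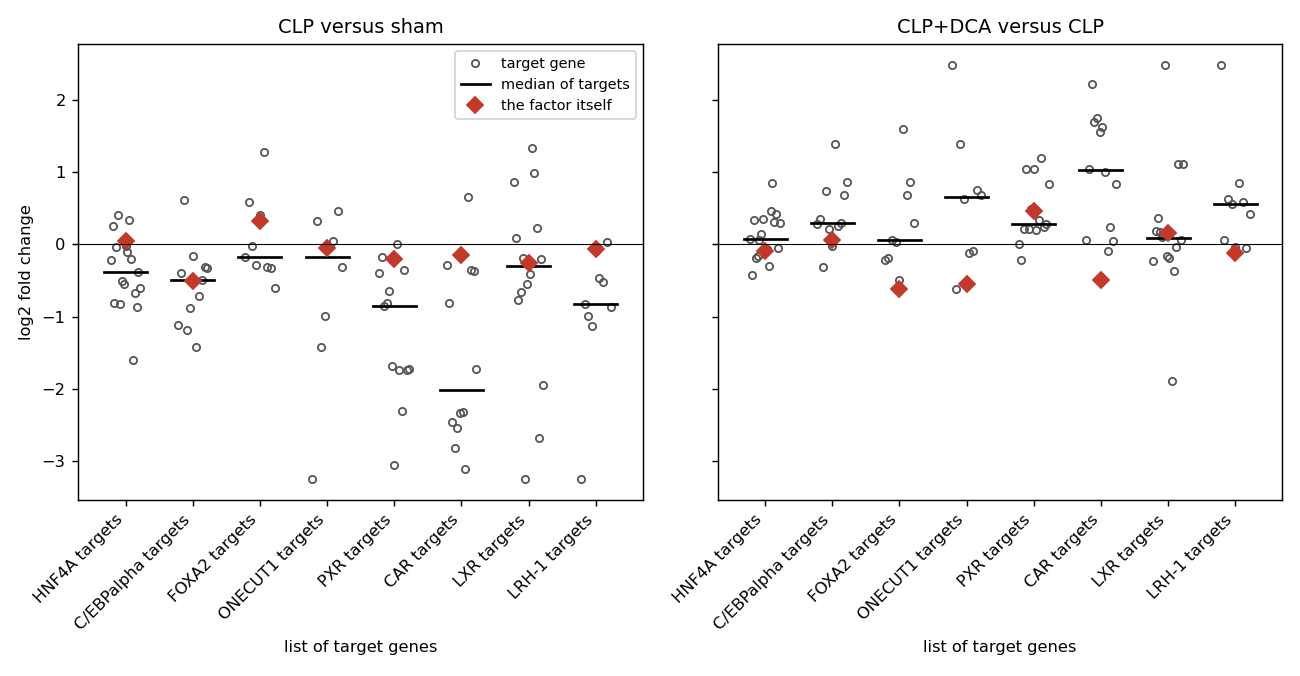
log2 fold changes (y axis) of the tested targets of 8 factors (x axis, open circles, with the median as a bar) and of the factor's own gene (red diamonds), in CLP versus sham (left) and CLP+DCA versus CLP (right). In CLP versus sham the CAR targets have a median of -2.02 and Nr1i3 lies at -0.14.

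No target of these lists passed the FDR in CLP+DCA versus CLP. Above 0 were 12 of 13 PXR targets (median 0.28) and 11 of 12 CAR targets (median 1.03), where the median of all genes was 0.01, and with 1 mouse left out the medians ran from 0.14 to 0.56 and from 0.80 to 1.40. Without CLP+DCA replicate 3 they were 0.54 and 1.38, and targets then passed in every list, as did 267 genes higher and 349 lower of 13288: 2 CAR, 2 C/EBPα and 2 HNF6 targets and 1 each of PXR, LXR, HNF4A, FOXA2 and LRH-1 higher, and 1 HNF6 target lower. Against sham, 11 of 13 PXR targets and 10 of 12 CAR targets were below 0 in CLP+DCA, with medians of -0.64 and -0.51, or -0.43 and -0.27 without that mouse. G6pc was at 132.7 CPM in CLP+DCA, a log2 fold change of 1.39 from CLP (unadjusted p = 0.000649, adjusted p = 0.178; DESeq2 adjusted p = 0.00302) and of -0.04 from sham. In the other lists, 9 of 11 C/EBPα targets were above 0 in CLP+DCA versus CLP (median 0.30, from 0.28 to 0.47 with 1 mouse left out, Cebpa at 0.06), as were 7 of 9 LRH-1 targets (median 0.56, from 0.27 to 0.77) and 5 of 8 HNF6 targets (median 0.66, from 0.33 to 0.92). Above 0 were also 6 of 9 FOXA2 targets (median 0.07, Foxa2 at -0.62), 10 of 17 HNF4A targets (median 0.07) and 8 of 14 LXR targets (median 0.08). With 1 mouse left out these medians ran from -0.06 to 0.14, from -0.09 to 0.39 and from 0.03 to 0.15, so that those of FOXA2 and HNF4A targets took both signs, with the lowest values without CLP+DCA replicate 4.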

How the data were processed

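Poly(A)-enriched, paired-end TruSeq v2 libraries of whole liver from 12 mice were sequenced. The authors aligned reads to mm10 with STAR 2.5 and deposited raw counts per gene from featureCounts (Subread 1.5.0-p1). The annotation and strand setting are not given in the sources used here. In R 4.3.3, 13190 of 25611 genes (6769 had no reads) passed filterByExpr of edgeR 4.0.16 (minimum count 10). After TMM scaling, robust quasi-likelihood fits took all 12 mice together, with each comparison as a contrast and Benjamini-Hochberg adjustment over all genes. SE is the size of the log2 fold change over the square root of F. The fits were tested on simulated data. DESeq2 1.42.0 on the 8 mice compared, other scalings, no filter, a replicate block and leaving out each mouse were tried as alternatives. Counting error sets only part of the spread between mice.

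Groups came from the sample titles. The 9 genes, the lists (nuclear receptors, other liver factors, coregulators, targets, acute phase genes, cell markers) and the naming rule were chosen with earlier results of these data known. From each list the rule named genes past the FDR in CLP versus sham (at most 4, by p), or the 2 with the smallest p where fewer than 2 passed, and the 5 genes most like the member with the smallest p. Hpd, Camp, Ly6g, Apob, Ahsg, Apoh, Marco, Clec4f, Tomm40l, Hnf4aos and Esrrb were named after their values were seen. So were Ass1, Cyp2b10, Cyp2c29, Cyp2c37, Cyp2c50, Cyp2c54 and Gadd45b. Some genes of the lists are counted but not reported here by name. The listed symbol of transferrin matched no gene.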

Additional observations from a re-analysis of the deposited data

Results flagged for a closer look

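In 27 groups of 4 values (9 genes in 3 groups), the gap of 1 mouse to the others passed Dixon's 95% critical value in 3 groups, and chance flags about 1 group in 20. Onecut1 in sham replicate 4 was at 21.48 CPM, where the other sham mice had 3.58 to 5.02 CPM. Nr5a2 in CLP replicate 4 was at 68.11 CPM, where the others had 45.31 to 48.35 CPM. Nr5a2 in CLP+DCA replicate 4 was at 59.71 CPM, where the others had 42.61 to 45.12 CPM. The 4 sham mice had 49.17 to 58.37 CPM of Nr5a2, so that both high mice lay above sham and the rest of their groups below it.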

How the results depend on the processing

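In CLP versus sham 367 genes passed the FDR, 209 with library size alone, 122 without the low-count filter, 2387 with edgeR on the 8 mice compared, 3428 with DESeq2, and 10 (without sham replicate 3) to 3157 (without CLP+DCA replicate 3) when 1 mouse was left out. In CLP+DCA versus sham 5 passed, 3 with library size alone, 0 with edgeR on 8 mice, 169 with DESeq2 and 1 to 11 with 1 mouse left out. For CLP+DCA versus CLP it was 1, 0 with edgeR on 8 mice, 80 with DESeq2 and 0 to 616 (without CLP+DCA replicate 3) with 1 mouse left out. Of the 9 genes 0 passed, also with edgeR on 8 mice, against 2, 1 and 1 with DESeq2, and 0 to 2, 0 to 0 and 0 to 1 with 1 mouse left out. The cause of these shifts was not tested.

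Replicate numbers did not pair the mice: deviations of same-numbered mice from their group means correlated across genes from -0.46 to 0.55, and not every mouse correlated best with its own number. With a replicate block 46, 0 and 4 genes passed in the 3 comparisons, none of the 9 among them, and Onecut1 in CLP versus sham was 0.193.

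With library size alone, Hnf4a was -0.123 in CLP versus sham, and in CLP+DCA versus CLP Hnf4a was 0.023, Rxra 0.0884 and Nr5a2 0.0131, where the median of all genes was 0.119. Log2 fold changes that took both signs with 1 mouse left out were, in CLP versus sham, Onecut1 (-0.311 to 0.932) and Nr1i3 (-0.349 to 0.0552). In CLP+DCA versus sham they were Hnf4a (-0.112 to 0.00847), Onecut1 (-0.959 to 0.385) and Nr1h3 (-0.184 to 0.0748), and in CLP+DCA versus CLP Rxra (-0.0857 to 0.0473), Cebpa (-0.0916 to 0.203) and Nr5a2 (-0.238 to 0.0444). Every other member value kept its direction. Past the FDR were 3 of these values with CLP+DCA replicate 3 left out and 4 with DESeq2.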
